A study of Mus musculus with 5 samples.

Results

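The enzymes that make and use alpha-ketoglutarate and glutamate were examined at the RNA level in pluripotent and somatic mouse cells. Their members were the genes with the symbols Idh1, Idh2, Idh3a, Ogdh, Dlst, Glud1, Got1, Got2, and Gpt2, all 9 of which were found among the 24421 genes of both deposited tables. RNA-seq had been performed on 5 libraries. They came from MEFs, from iPSCs, and from V6.5 cells that were untreated, carried a non-targeting control shRNA (NTC), or carried a Gldc shRNA (shGldc). MEFs are fibroblasts grown from mouse embryos, here of the CF-1 strain. iPSCs are somatic cells returned to pluripotency, here a line obtained from ATCC. V6.5 is an established mESC line, and it carries no shRNA in the untreated library. The shRNAs were expressed stably from a lentiviral vector, and Gldc is the glycine decarboxylase of the glycine cleavage system. Per the labels, the stem cells were grown without feeder cells on gelatin, with serum replacement beside a little serum, L-glutamax, sodium pyruvate, β-mercaptoethanol, and LIF, whereas the medium listed for MEFs held more serum and none of the other additions. The paper also describes culture on feeder cells and does not say which was used for RNA-seq. Origin, cell type, and medium cannot be told apart in the comparisons with MEFs. Each group was 1 library, so no value has a replicate error and no p-value is given. Levels are given as FPKM, the fragments of a gene scaled to its transcript length in kilobases and to 1000000 mapped fragments, so levels of different genes can be compared within a library.

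Alpha-ketoglutarate is the carbon skeleton of glutamate and an intermediate of the TCA cycle. Isocitrate dehydrogenases form it from isocitrate, the oxoglutarate dehydrogenase complex burns it to succinyl-CoA, and glutamate dehydrogenase and the transaminases exchange it with glutamate. It is also the co-substrate of the Tet DNA demethylases and the Jumonji histone demethylases, and for that reason it is much studied in pluripotent stem cells. These measurements are of RNA, and neither the metabolite nor enzyme activity was measured in these files.

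The targeted gene and the cell type markers were examined first. Gldc was at 59.7 FPKM in untreated V6.5 cells, 70.8 in iPSCs, 74.7 in NTC, 2.07 in shGldc, and 0.123 in MEFs, so its level was as the labels state in both shRNA libraries. The sum of 13 pluripotency markers was 41.5 FPKM in MEFs and between 4331 and 7349 FPKM in the other 4 libraries, where all 13 were at 1 FPKM or more. The sum of 12 fibroblast markers was 8022 FPKM in MEFs and between 10.2 and 82.8 FPKM in the stem cell libraries. The highest of these was untreated V6.5 at 1.03% of the MEF sum, and NTC and shGldc listed Col3a1, Dcn, Lum, and Postn at 0. The MEF library also held macrophage transcripts, with 7 of 8 markers at 1 FPKM or more and a sum of 300.8 FPKM, against 10.9 to 20.6 FPKM elsewhere. In shGldc, 13 early differentiation markers summed to 89.8 FPKM, against 16.8 to 28.9 FPKM in the other libraries. In shGldc, Cdx2 gave 33.3, Hoxb2 12.2, and Hoxb1 9.62 FPKM, and Hoxb2 was also at 11.5 FPKM in MEFs. Of 9 markers at 1 FPKM or more in NTC or shGldc, 5 were at least 2-fold higher in shGldc, beside 8.97% of all genes. Of the same 9, Mixl1 and Sox1 were lower in shGldc, and Fgf5 was at 0 in both shRNA libraries. The part of macrophages in the MEF values and of differentiating cells in the shGldc values was not tested. In bulk RNA, fewer cells of a type and less RNA per cell cannot be told apart. The low values of each library placed its depth at about 24600000 fragments in MEFs, 24700000 in untreated V6.5 cells, and 22100000 in iPSCs. For NTC and shGldc they gave no single answer, with 7260000 or 29100000 in NTC and 9610000 or 28800000 in shGldc. With the lower depths, between 476 and 19316 fragments stood behind each member's value, and the counting error of a member's log2 ratio was between 0.019 and 0.084. This error covers counting only and not the spread between cultures.

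The promoter sequences are shown for Got1, Glud1, and Idh1, the members whose levels varied most over the 5 libraries, as 250 bases before the start site in RefSeq (GRCm38.p6). Got1 lies at chr19:43524606-43524855 on the minus strand, Glud1 at chr14:34310477-34310726 on the plus strand, and Idh1 at chr1:65186480-65186729 on the minus strand. Capitals mark the letters of 7 motifs that were searched for on both strands.
Got1: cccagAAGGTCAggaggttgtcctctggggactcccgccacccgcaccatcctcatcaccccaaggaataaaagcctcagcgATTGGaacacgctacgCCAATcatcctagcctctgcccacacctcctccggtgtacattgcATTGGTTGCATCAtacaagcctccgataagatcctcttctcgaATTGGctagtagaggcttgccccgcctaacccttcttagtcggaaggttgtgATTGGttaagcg
Glud1: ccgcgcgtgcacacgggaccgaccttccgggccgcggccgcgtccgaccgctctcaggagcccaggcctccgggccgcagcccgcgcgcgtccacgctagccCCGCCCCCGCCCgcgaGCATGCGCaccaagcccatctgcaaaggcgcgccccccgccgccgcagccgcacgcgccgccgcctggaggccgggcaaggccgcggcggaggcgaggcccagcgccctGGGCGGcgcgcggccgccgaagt
Idh1: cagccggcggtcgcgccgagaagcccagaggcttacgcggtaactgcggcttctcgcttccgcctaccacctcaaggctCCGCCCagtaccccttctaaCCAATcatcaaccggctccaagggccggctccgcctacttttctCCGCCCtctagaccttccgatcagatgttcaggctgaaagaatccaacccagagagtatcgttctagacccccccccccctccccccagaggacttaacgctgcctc
The window of Got1, which for the search ran on to 50 bases past the start, held CCAAT boxes (CCAAT) at 6 places, 1 C/EBP-ATF response element (TGATGCAA, here read on the other strand as TTGCATCA directly beside a CCAAT box), and 1 half-site of the estrogen-related receptors (AAGGTCA). Over all 32851 mouse windows of this length, the CCAAT box was present in 37.4%, the C/EBP-ATF response element in 0.895%, and the receptor half-site in 4.72%. The window of Glud1 held the GC box (GGGCGG) 3 times, 2 of them side by side, and the core of the NRF1 motif (GCATGCGC) once. The GC box was in 35.7% of all windows and the NRF1 core in 2.71%. The window of Idh1 held 1 CCAAT box and 2 GC boxes. Among the other members with a window, the GC box was also found in Idh2, Ogdh, Dlst, and Gpt2, and the CCAAT box in Idh2 and Ogdh. The windows of Ogdh also held the E-box (CACGTG, in 7.15% of all windows), the CRE (TGACGTCA, in 1.79%), the receptor half-site, and the NRF1 core, whereas that of Got2 held none of the 7 motifs. Ogdh had 6 windows and Idh1 2, so their chances of a match were higher. A window was found for 8 of the 9 members, all but Idh3a. These matches describe the letters only, since no binding was measured here.

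The isocitrate dehydrogenases differed in where they stood highest. Gene positions are given in mm10. Idh1, the cytosolic NADP-dependent enzyme (chr1:65158616-65186500, minus strand), was at 64.3 FPKM in MEFs, 39.3 in untreated V6.5 cells, 24.2 in iPSCs, 28.7 in NTC, and 48.4 in shGldc. Its level was highest in MEFs and lowest in iPSCs, and shGldc stood between MEFs and the other stem cell libraries. Idh2, the mitochondrial NADP-dependent enzyme (chr7:80094846-80115392, minus strand), was at 124 FPKM in MEFs, 231 in untreated V6.5 cells, 201 in iPSCs, 144 in NTC, and 148 in shGldc. It was lowest in MEFs, and both shRNA libraries were nearer to MEFs than to untreated V6.5 cells. Idh3a, the catalytic subunit of the NAD-dependent enzyme of the TCA cycle (chr9:54586334-54604661, plus strand), was at 35.4 FPKM in MEFs, 62.6 in untreated V6.5 cells, 39.6 in iPSCs, 40.7 in NTC, and 37.8 in shGldc. Untreated V6.5 cells alone stood apart, and the other 4 libraries lay between 35.4 and 40.7 FPKM. Of its partner subunits, Idh3g was at 60.7 FPKM in MEFs and between 115 and 130.3 FPKM in the stem cell libraries. Idh3b, whose exons overlap those of Nop56, was at 72.1 FPKM in MEFs, 83.2 in untreated V6.5 cells, 131 in iPSCs, 73.3 in NTC, and 137 in shGldc. The level of Idh3a over the sum of Idh3b and Idh3g was therefore lowest in shGldc at 0.142 and highest in untreated V6.5 cells at 0.296, with 0.266 in MEFs, 0.161 in iPSCs, and 0.202 in NTC.

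The balance of Idh1 and Idh2 was compared within each library, where it does not depend on scaling between libraries. Idh1 was 34.1% of the summed FPKM of both in MEFs, 14.6% in untreated V6.5 cells, 10.7% in iPSCs, 16.6% in NTC, and 24.7% in shGldc. Idh2 was the more abundant in all 5 libraries, and the share of the cytosolic enzyme was larger in MEFs than in each stem cell library. The sum of both differed less, from 173 FPKM in NTC to 269.8 in untreated V6.5 cells, with 188 in MEFs, 225 in iPSCs, and 196 in shGldc.

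**Figure D1:**
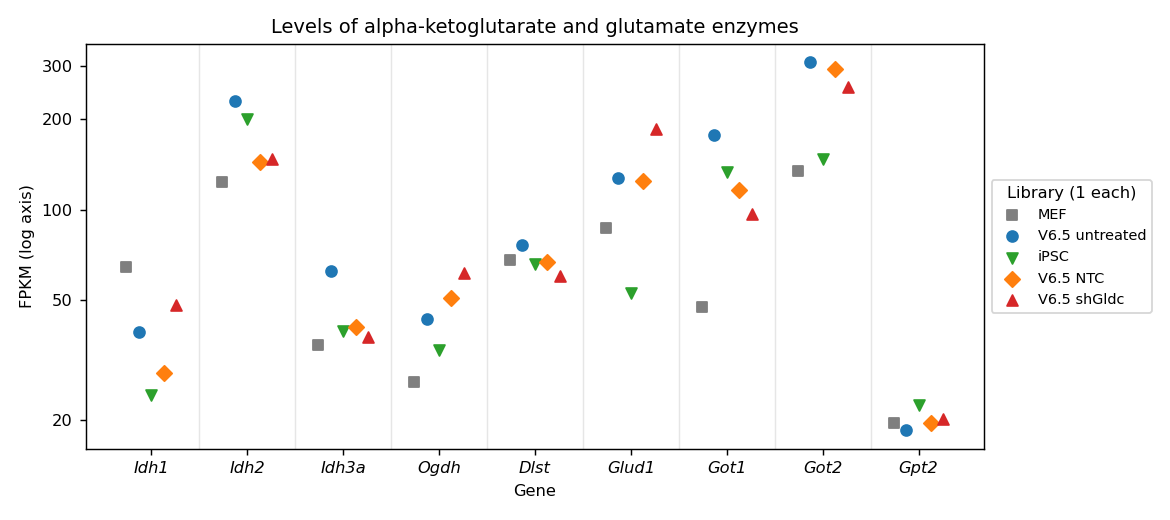
The FPKM of the 9 members (log axis) is plotted for 5 libraries, 1 point per library and therefore without error bars. Got1 lies at 47.5 in MEFs and between 96.5 and 177 in the stem cells, Idh1 is highest in MEFs, and the points of Dlst and Gpt2 lie close together.

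The oxoglutarate dehydrogenase complex joins 3 components. Ogdh, the first component, which decarboxylates alpha-ketoglutarate (chr11:6291633-6356642, plus strand), was at 26.8 FPKM in MEFs, 43.4 in untreated V6.5 cells, 34.3 in iPSCs, 50.9 in NTC, and 61.4 in shGldc. Its level was lowest in MEFs and highest in shGldc. Dlst, the succinyl-transferring core (chr12:85110833-85134845, plus strand), was at 68.1 FPKM in MEFs, 76.6 in untreated V6.5 cells, 66.0 in iPSCs, 66.9 in NTC, and 60.3 in shGldc. Its highest and lowest level differed by 1.27 times. Dld, the lipoamide dehydrogenase that also serves pyruvate dehydrogenase and the glycine cleavage system, was at 30.3 FPKM in MEFs, 29.3 in untreated V6.5 cells, 32.1 in iPSCs, 16.1 in NTC, and 19.3 in shGldc. Both libraries with a low Dld level come from the second table.

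The paralogue Ogdhl, an alternative first component, differed more than Ogdh. Ogdhl was at 14.6 FPKM in MEFs, 67.7 in untreated V6.5 cells, 55.0 in iPSCs, 34.5 in NTC, and 31.5 in shGldc. Ogdh made up 64.8% of the FPKM of both in MEFs, 39.05% in untreated V6.5 cells, 38.4% in iPSCs, 59.6% in NTC, and 66.1% in shGldc. The more abundant of the pair thus changed between untreated V6.5 cells and the NTC library of the same cell line, which were in separately made tables. The sum of Ogdh and Ogdhl over Dlst was 0.607 in MEFs and lay between 1.28 and 1.54 in the 4 stem cell libraries. MEFs were the library in which Dlst exceeded both forms of the first component together.

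Glud1, the mitochondrial glutamate dehydrogenase that turns glutamate into alpha-ketoglutarate and ammonia (chr14:34310727-34345265, plus strand), was at 87.0 FPKM in MEFs, 128 in untreated V6.5 cells, 52.9 in iPSCs, 125 in NTC, and 185 in shGldc. iPSCs were lowest and shGldc highest, 3.50 times apart, while untreated V6.5 cells and NTC were nearly level. Of the 50-nt stretches of Glud1, 6.49% also occur in transcripts of Glud-ps and Gm43444, so a small part of its reads could have been split among copies.

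The transaminases were the members with the largest and the smallest differences. Got1, the cytosolic aspartate transaminase of the malate-aspartate shuttle (chr19:43499752-43524605, minus strand), was at 47.5 FPKM in MEFs, 177 in untreated V6.5 cells, 133 in iPSCs, 116 in NTC, and 96.5 in shGldc. All 4 stem cell libraries were above MEFs, the nearest being shGldc. Got2, its mitochondrial counterpart (chr8:95864134-95888547, minus strand), was at 135 FPKM in MEFs, 309 in untreated V6.5 cells, 147 in iPSCs, 294 in NTC, and 255 in shGldc. The 3 V6.5 libraries were above 250 FPKM, and the iPSCs were close to MEFs. The level of Got2 is the least certain of the members, since 16.8% of its 50-nt stretches are shared with Got2-ps1 and its exons overlap Gm45760. Gpt2, the mitochondrial alanine transaminase (chr8:85492576-85527560, plus strand), was at 19.5 FPKM in MEFs, 18.5 in untreated V6.5 cells, 22.5 in iPSCs, 19.5 in NTC, and 20.2 in shGldc. It was the lowest member in each of the 5 libraries and the one that varied least.

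The balance of the aspartate transaminases differed between the libraries. Got1 was 26.0% of the summed FPKM of Got1 and Got2 in MEFs, 36.4% in untreated V6.5 cells, 47.5% in iPSCs, 28.3% in NTC, and 27.5% in shGldc. In iPSCs both enzymes were nearly equal, whereas in NTC and shGldc the balance was close to that of MEFs at a higher summed level (409.7 FPKM in NTC, 352 in shGldc, and 183 in MEFs). Gpt, the other alanine transaminase, was at 1.24 FPKM in MEFs, 6.17 in untreated V6.5 cells, 3.60 in iPSCs, 5.21 in NTC, and 3.08 in shGldc. Gpt2 was therefore the main form in all libraries, with 94.0% of the FPKM of both in MEFs, 86.2% in iPSCs, 74.95% in untreated V6.5 cells, 78.9% in NTC, and 86.8% in shGldc. The level of Glud1 over that of Got2, both of which form alpha-ketoglutarate from glutamate in mitochondria, was 0.644 in MEFs, 0.414 in untreated V6.5 cells, 0.359 in iPSCs, 0.425 in NTC, and 0.727 in shGldc.

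**Figure D2:**
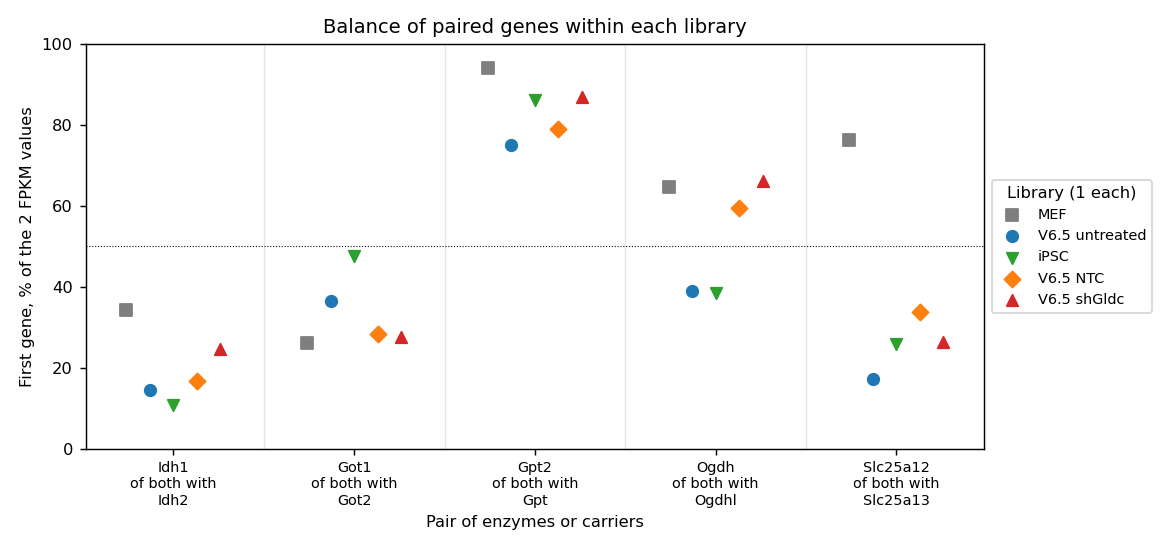
The share of the first gene in the FPKM of a gene pair is plotted in percent for 5 pairs and 5 libraries, 1 point per library. Idh1 is 34.1% in MEFs against 10.7% to 24.7% in stem cells, Ogdh lies on either side of 50% within the V6.5 libraries, and Slc25a12 is above 50% of the pair with Slc25a13 in MEFs and below it in the stem cells.

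The members were ordered by level within each library. As a yardstick for a difference between neighbours, the spread between NTC and untreated V6.5 cells was used, whose log2 ratios over all genes had a robust SD of 0.59, which includes any difference between the tables. Over the 5268 genes with at least 10 FPKM in both, like all members, it was 0.43, a narrower yardstick chosen after the data were seen. Neither value measures the error of a gap between different genes within a library, so gaps beyond them only describe the order. Got2 was the highest member in 4 libraries, and Idh2 in iPSCs, where Got2 followed at a log2 distance of 0.45. In MEFs no neighbours were further apart than 0.59, but the gaps after Idh2 (0.51), Idh1 (0.44), and Ogdh (0.46) were beyond 0.43, and the order was Got2, Idh2, Glud1, Dlst, Idh1, Got1, Idh3a, Ogdh, and Gpt2. In untreated V6.5 cells the order was Got2, Idh2, Got1, Glud1, Dlst, Idh3a, Ogdh, Idh1, and Gpt2, with gaps beyond 0.59 after Glud1 (0.74) and Idh1 (1.09) and beyond 0.43 also after Got1 (0.47) and Idh3a (0.53). Got1 thus had rank 6 of 9 in MEFs and rank 3 in untreated V6.5 cells and iPSCs. In iPSCs the gap beyond 0.59 was that after Got1 (1.01), which left Idh2, Got2, and Got1 above the other 6 members, and those after Idh2 and Ogdh (0.50) were beyond 0.43. In NTC, Got2 was set off from Idh2 by 1.02 and Got1 from Dlst by 0.79, and the gaps after Idh3a (0.50) and Idh1 (0.55) were beyond 0.43. In shGldc, the gaps beyond 0.59 came after Idh2 (0.62), Got1 (0.65), and Idh3a (0.90), and that between Got2 and Glud1 (0.46) was beyond 0.43. All members lay among the abundant genes, with Gpt2 at or above 83.35% of all genes in the library where it ranked lowest. Summed over the 9 members, the level was 608 FPKM in MEFs, 1085 in untreated V6.5 cells, 721 in iPSCs, 886 in NTC, and 913 in shGldc.

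To ask how the members differ between pluripotent and somatic cells, log2 ratios were taken as differences of log2(FPKM + 0.1). In untreated V6.5 cells over MEFs, Got1 was higher by 1.89 and Got2 by 1.19, and they were the 2 members at least 2-fold higher. This degree of difference was common, since 30.3% of the 12840 genes with at least 1 FPKM in either library were higher by that much and 23.3% lower. No member was at least 2-fold lower. The ratio was 0.89 for Idh2, 0.82 for Idh3a, 0.69 for Ogdh, 0.56 for Glud1, 0.17 for Dlst, -0.08 for Gpt2, and -0.71 for Idh1. The median of the members was 0.69, beside 0.25 for all genes. The FPKM sum was larger in V6.5 cells than in MEFs, and a rescaling to the same sum lowers these ratios by 0.24, which leaves Got1 as the member past 2-fold and turns the sign of Dlst. A ratio as high as that of Got1 or higher was found for 16.5% of genes.

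In iPSCs over MEFs, which share the MEF library with the comparison above, Got1 was again higher, by 1.49, and was the single member at least 2-fold higher, beside 31.5% of 13032 genes. Idh1 was lower by 1.41 on the log2 scale and was the single member at least 2-fold lower, beside 21.3% of genes. The ratio was 0.69 for Idh2, 0.35 for Ogdh, 0.20 for Gpt2, 0.16 for Idh3a, 0.13 for Got2, -0.05 for Dlst, and -0.71 for Glud1. The median of the members was 0.16, beside 0.31 for all genes. With the rescaling, which lowers the ratios by 0.30, Glud1 also passed 2-fold, and Gpt2, Idh3a, and Got2 changed sign.

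Between the pluripotent lines, 8 of the 9 members were lower in iPSCs than in untreated V6.5 cells. Among all genes, 48.5% had a log2 ratio of 0.02 or lower. Glud1 was lower with a log2 ratio of -1.27 and Got2 with -1.07, the 2 members at least 2-fold lower, beside 7.44% of 12323 genes. No member was at least 2-fold higher, beside 10.1% of genes. A ratio as low as that of Glud1 or lower was found for 4.39% of genes, and as low as that of Got2 or lower for 6.52%. The ratio was -0.70 for Idh1, -0.66 for Idh3a, -0.41 for Got1, -0.34 for Ogdh, -0.21 for Dlst, -0.20 for Idh2, and 0.28 for Gpt2. The median of the members was -0.41, beside 0.04 for all genes. These lines differ in origin as well as in the way they became pluripotent, and 1 library of each does not separate these.

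To ask how the knockdown of Gldc affects these enzymes, shGldc was compared with NTC. No member was at least 2-fold higher or lower, beside 8.97% of 11969 genes higher and 7.68% lower. Idh1 was higher by 0.75, Glud1 by 0.57, and Ogdh by 0.27. The other 6 members lay between -0.26 (Got1) and 0.05 (Gpt2), with 0.03 for Idh2, -0.11 for Idh3a, -0.15 for Dlst, and -0.20 for Got2. The median of the members was 0.03, beside 0.04 for all genes. Among 5272 genes with at least 10 FPKM in both libraries, the central 90% of ratios ran from -0.60 to 0.73, so that Idh1 lay just past its upper end and the other members within it. Over all genes, the ratio of Idh1 was reached or exceeded by 13.2% and that of Glud1 by 17.8%, whereas those of the other members lay within the middle 50%.

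The shRNA libraries were set beside untreated V6.5 cells as values only, since their tables were made separately. In NTC over untreated V6.5 cells no member was at least 2-fold higher or lower, beside 4.99% of 12048 genes higher and 10.3% lower. The ratios ran from -0.67 for Idh2 to 0.23 for Ogdh, with -0.62 for Idh3a, -0.61 for Got1, -0.45 for Idh1, -0.20 for Dlst, -0.07 for Got2, -0.04 for Glud1, and 0.08 for Gpt2. In shGldc over untreated V6.5 cells no member was at least 2-fold higher or lower either, beside 9.89% of 12237 genes higher and 13.9% lower. The ratios ran from -0.87 for Got1 to 0.54 for Glud1, with -0.73 for Idh3a, -0.64 for Idh2, -0.34 for Dlst, -0.28 for Got2, 0.13 for Gpt2, 0.30 for Idh1, and 0.50 for Ogdh. The medians of the members were -0.20 in NTC and -0.28 in shGldc, beside -0.06 and -0.02 for all genes. For Idh1 the difference between NTC and untreated V6.5 cells was opposite in sign to that between shGldc and NTC, so shGldc was closer to untreated V6.5 cells than its ratio over NTC alone shows. For Glud1, NTC and untreated V6.5 cells were level, and shGldc was above both.

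**Figure D3:**
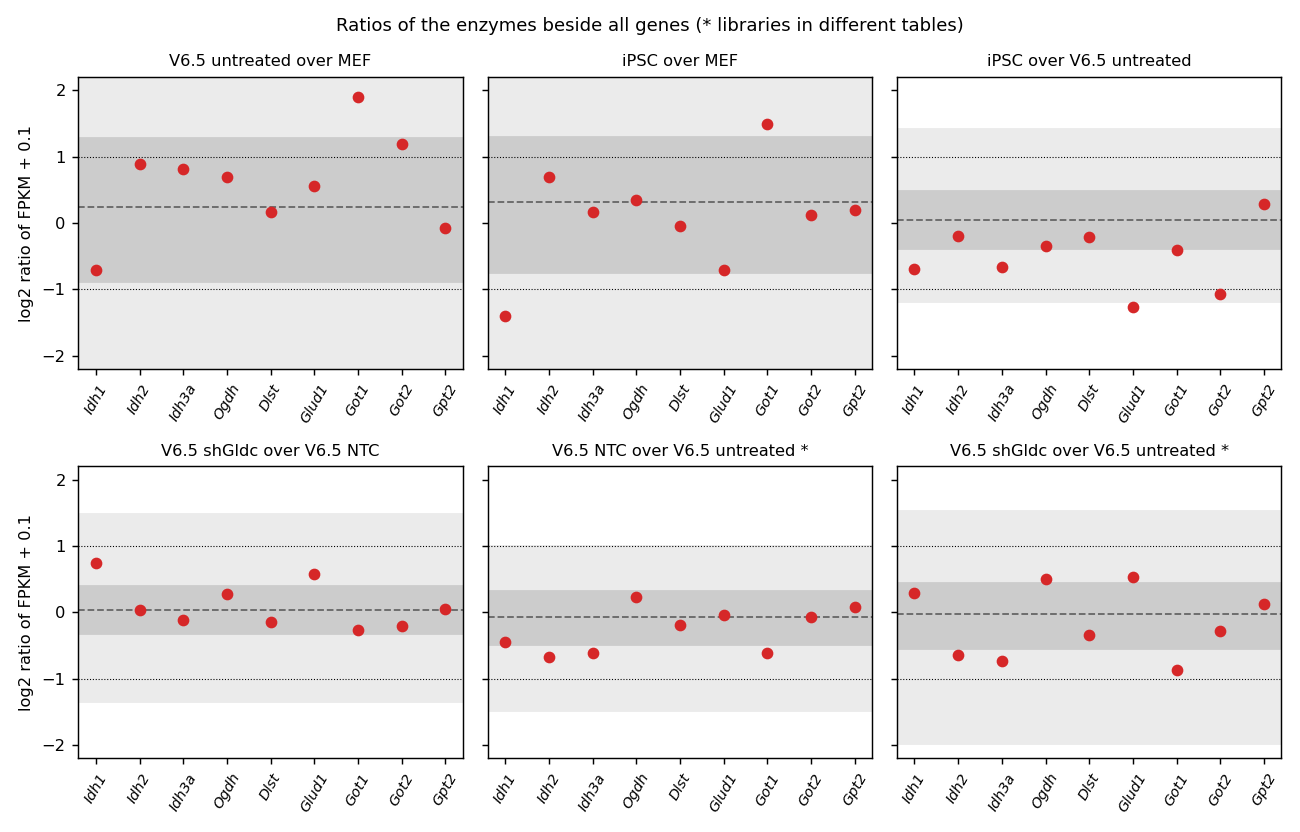
Log2 ratios of FPKM + 0.1 of the 9 members are plotted for 6 comparisons, each of 1 library over 1 library. The dark band holds the middle 50% and the light band the middle 90% of all genes, the dashed line is their median, and dotted lines mark 2-fold. Got1 lies above the dark band in V6.5 cells and iPSCs over MEFs, Glud1 is the lowest member in iPSCs over V6.5 cells, and Idh1 and Glud1 lie above the dark band in shGldc over NTC.

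The range of each member over the 5 libraries was set beside that of 7647 genes with at least 10 FPKM in a library, whose median log2 range was 1.47. Got1 ranged over 1.89 (3.72 times) and exceeded 64.6% of these genes, Glud1 over 1.81 and exceeded 62.1%, and Idh1 over 1.41 and exceeded 47.9%. Got2 and Ogdh each ranged over 1.19, Idh2 over 0.89, and Idh3a over 0.82. Dlst, with a range of 0.34, exceeded 1.40% of genes, and Gpt2, with 0.28, exceeded 0.602%. The set also held genes abundant in some libraries and low in others, such as Col1a1 at 3672 FPKM in MEFs and 0.125 in shGldc. The members were above 10 FPKM in all 5 libraries, so small ranges beside this set are partly built in. These shares therefore do not rank Dlst and Gpt2 among genes that are abundant throughout. By the distance between centred log2 profiles over the 5 libraries, the genes most like Got1 were Hip1r (0.123), Herc4 (0.181), and Tpd52 (0.216). Those most like Glud1 were Snx25 (0.319), Babam1 (0.366), and Cinp (0.396), and those most like Idh1 were Sptssa (0.207), Vamp3 (0.224), and Dscr3 (0.272). With 5 points to a profile, such likeness is a description.

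The other TCA cycle genes were taken as a list of 17 partners, and all 17 passed the filter in each comparison. In untreated V6.5 cells over MEFs, 3 of the 17 were at least 2-fold higher and none lower, beside 30.3% and 23.3% of all genes. These were Ogdhl (2.21), Suclg2, the GTP-forming subunit of succinyl-CoA synthetase (1.59), and Idh3g (1.08). Of the 50-nt stretches of Suclg2, 15.96% are shared with Gm15163. In iPSCs over MEFs, 2 were at least 2-fold higher, among them Ogdhl (1.91), and none lower, beside 31.5% and 21.3% of all genes. Between iPSCs and V6.5 cells, and between shGldc and NTC, no partner differed 2-fold, beside 10.1% of all genes higher and 7.44% lower in the former and 8.97% and 7.68% in the latter. The medians were 0.51 in V6.5 cells over MEFs, 0.45 in iPSCs over MEFs, -0.16 in iPSCs over V6.5 cells, and 0.20 in shGldc over NTC, beside 0.25, 0.31, 0.04, and 0.04 for all genes.

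The genes that make, use, or store glutamate and glutamine were taken as a further list. Of 26 listed genes 24 were in the tables, and 21 passed the filter in each of the comparisons within a table. In untreated V6.5 cells over MEFs, 9 of the 21 were at least 2-fold higher and 4 lower, beside 30.3% and 23.3% of all genes. Gls2, a glutaminase that releases glutamate from glutamine and whose exons overlap those of Spryd4, was at 0.647 FPKM in MEFs, 19.2 in untreated V6.5 cells, 14.9 in iPSCs, 25.3 in NTC, and 21.7 in shGldc. All 4 stem cell libraries were above MEFs. Glul, the glutamine synthetase, was at 12.2 FPKM in MEFs, 58.3 in untreated V6.5 cells, 79.9 in iPSCs, 86.6 in NTC, and 44.1 in shGldc. Its exons overlap Teddm2 and Mir8114, and 11.9% of its 50-nt stretches are found in other transcripts.

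Among the rest of that list in untreated V6.5 cells over MEFs, the proline dehydrogenase Prodh was higher by 2.98, while the ornithine aminotransferase Oat was lower with -1.53 and the GABA transaminase Abat with -1.41. In iPSCs over MEFs, 12 were at least 2-fold higher, among them Gls2 (4.33) and Glul (2.70), and 4 lower, among them Abat (-1.39) and Oat (-1.36), beside 31.5% and 21.3% of all genes. Got1l1, a relative of Got1, was at 31.9 FPKM in untreated V6.5 cells, 26.3 in iPSCs, 7.84 in NTC, 15.5 in shGldc, and 0.030 in MEFs, where the value is near that of a single fragment, so no ratio is given. Between iPSCs and V6.5 cells, Asns, the asparagine synthetase, was the 1 gene at least 2-fold higher (1.28), and 1 was lower, beside 10.1% and 7.44% of all genes. Between shGldc and NTC, none of the 21 was at least 2-fold higher and 2 were lower, beside 8.97% and 7.68% of all genes. These were Gad1, at 0.060 against 1.04 FPKM, and Aldh18a1, which starts proline synthesis from glutamate, at 17.9 against 36.1 FPKM. Gad1 passed the filter through NTC alone, so its call is weak. The medians were 0.94, 1.06, 0.02, and -0.33 in the order of these comparisons, beside 0.25, 0.31, 0.04, and 0.04 for all genes.

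The mitochondrial carriers connect the cytosolic and mitochondrial enzymes. Slc25a12 and Slc25a13 encode the aspartate-glutamate carriers that work with Got1 and Got2 in the malate-aspartate shuttle. Slc25a12 was at 17.0 FPKM in MEFs, 11.4 in untreated V6.5 cells, 14.4 in iPSCs, 18.8 in NTC, and 13.0 in shGldc. Slc25a13 was at 5.28 FPKM in MEFs, 54.6 in untreated V6.5 cells, 41.4 in iPSCs, 36.7 in NTC, and 36.4 in shGldc. Slc25a12 was 76.3% of the FPKM of both in MEFs and between 17.2% and 33.8% in the stem cells, which all had more Slc25a13. Of the 6 carriers that passed the filter, Slc25a13 was the 1 at least 2-fold higher in V6.5 cells over MEFs (3.34) and in iPSCs over MEFs (2.95), beside 30.3% and 31.5% of all genes. Slc25a1, the citrate carrier, was lower in iPSCs, with -1.64 over MEFs and -1.49 over V6.5 cells, and was the 1 carrier at least 2-fold lower in each, beside 21.3% and 7.44% of all genes. Slc25a10, the dicarboxylate carrier, was the 1 carrier at least 2-fold higher in shGldc over NTC (1.24), beside 8.97% of all genes, and its exons overlap those of Gm11788. The medians of the carriers were -0.21 in V6.5 cells over MEFs, -0.43 in iPSCs over MEFs, -0.40 in iPSCs over V6.5 cells, and 0.10 in shGldc over NTC, beside the same medians of all genes.

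The enzymes that consume alpha-ketoglutarate as a co-substrate were listed as 35 dioxygenases, of which 33 were in the tables and 30 to 32 passed the filter. In untreated V6.5 cells over MEFs, 9 of 31 were at least 2-fold higher and 7 lower. These shares were close to those of all genes, 30.3% and 23.3%, so the counts are no result about the list. Tet1 (5.09) and Tet2 (2.56), which oxidise 5-methylcytosine, and Egln3 (2.00), a prolyl hydroxylase of HIF, were highest. The collagen-modifying enzymes P4ha3 (-5.84), Plod3 (-2.55), and P4ha1 (-2.38) were lowest. In iPSCs over MEFs, 9 of 32 were at least 2-fold higher, led by Tet1 (5.37) and Tet2 (3.64), and 6 lower, among them P4ha1 (-3.25) and Plod3 (-2.61), and P4ha3 was listed at 0 in iPSCs. The shares of all genes were again close, with 31.5% higher and 21.3% lower. The exons of Tet2 overlap Gm42567, and those of Plod3 overlap Znhit1 and Mir702. In iPSCs over V6.5 cells, Kdm7a (1.51) and Tet2 (1.08) were higher and Egln3 (-1.36) lower, beside 10.1% and 7.44% of all genes. Kdm7a was at 1.32 FPKM in iPSCs against 0.396 in V6.5 cells and passed the filter through iPSCs alone, so its call is weak. In shGldc over NTC, P4ha2 was higher (1.09) and Tet1 lower (-1.19, at 2.96 against 6.86 FPKM), beside 8.97% and 7.68% of all genes. The medians of this list were 0.29, 0.25, 0.09, and 0.11 in the order of these comparisons, beside 0.25, 0.31, 0.04, and 0.04 for all genes.

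The enzymes of 2-hydroxyglutarate, the reduced form of alpha-ketoglutarate, numbered 3 after the filter. In V6.5 cells and in iPSCs over MEFs, 1 of the 3 was at least 2-fold higher, beside 30.3% and 31.5% of all genes. D2hgdh, which oxidises the D form, was at 4.33 FPKM in MEFs, 7.97 in untreated V6.5 cells, 3.96 in iPSCs, 3.45 in NTC, and 5.35 in shGldc. Its log2 ratio of iPSCs over V6.5 cells was -0.99, just short of 2-fold with the pseudocount of 0.1 and past it with 0.01 or after rescaling or centring. Phgdh, the first enzyme of serine synthesis from glucose, was at 297 FPKM in MEFs, 220.1 in untreated V6.5 cells, 213 in iPSCs, 179.8 in NTC, and 154 in shGldc. Of the 50-nt stretches, 47.8% of those of Phgdh are shared with Gm7901, Gm9347, and Gm8341 and 17.8% of those of D2hgdh with Gm18666 and Gm7889, so both levels are uncertain.

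**Figure D4:**
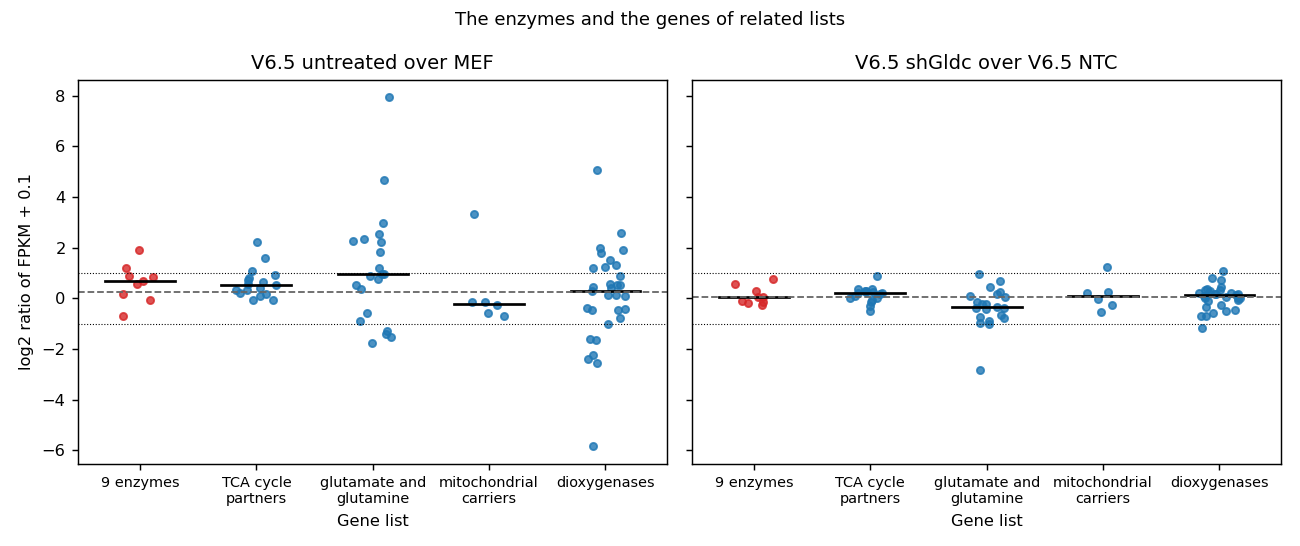
Log2 ratios of FPKM + 0.1 of the 9 members and of 4 related lists are plotted for untreated V6.5 cells over MEFs (left) and shGldc over NTC (right), 1 point per gene, with the median of a list as a bar, that of all genes as a dashed line, and 2-fold as dotted lines. Members of the glutamate and dioxygenase lists spread far past 2-fold on the left, and nearly all points lie within 2-fold on the right.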

How the data were processed

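RNA-seq was performed by the authors on 5 mouse libraries, prepared with a NEBNext Ultra kit. Per the paper's methods, reads were mapped to mm10 with TopHat2, transcripts were assembled with StringTie, and gene expression was computed with Ballgown. The submitters' processing notes name TopHat2 2.1.0, StringTie 1.3.4d, and SAMtools 1.7, and also mm9 with no role. The annotation, strand setting, and filters are not given in the sources used here. The authors deposited FPKM values of 24421 genes in 2 tables, of 3 libraries (MEFs, iPSCs, untreated V6.5) and 2 libraries (NTC, shGldc). FPKM does not correct for a different composition of the RNA. The column taken as shGldc is headed sh3, and the sequence of its shRNA is not shown.

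Groups were taken from the labels. Log2 ratios were differences of log2(FPKM + 0.1), which understate the change of low genes. Genes were kept where a library of the comparison reached an FPKM of 1, and 2-fold was the call. All 9 members passed this filter in each comparison. With 1 library per group no test was possible. The members and lists were chosen with earlier results of these data known, the motifs with the promoter sequences in view, and 4 of the gene pairs (Slc25a12 with Slc25a13, Mdh1 with Mdh2, Bcat1 with Bcat2, Sucla2 with Suclg2) after their values were seen. The genes named were all members, their partners in the gene pairs, Gldc, genes of a list that differed at least 2-fold (at most the 3 highest and 3 lowest), and the 3 genes most like each of the 3 members with the largest range. Dld, D2hgdh, Phgdh, and single marker genes were named after their values were seen. Some genes that the rule names are not reported here.

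For the depth, low FPKM values were multiplied by transcript length and searched for the step that 1 fragment is worth, a search tested on simulated data. Positions, overlaps, and shared 50-nt stretches are from GENCODE M21 (mm10), promoters from RefSeq (GRCm38.p6). Alternatives were a pseudocount of 1 or 0.01, a filter at an FPKM of 5 or none, a call at 1.5-fold, rescaling to the same FPKM sum, centring on the median of all genes, and the mean of the members. Python 3.11.15, numpy 2.4.6, pandas 2.3.3, and matplotlib 3.10.9 were used.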

Additional observations from a re-analysis of the deposited data

Results flagged for a closer look

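In 3 members the ratio over MEFs had opposite signs in untreated V6.5 cells and iPSCs. The difference was not tested, since each group was 1 library and both ratios share the MEF library. The log2 ratio of Glud1 was 0.56 in untreated V6.5 cells and -0.71 in iPSCs, and both kept their sign after rescaling to the same FPKM sum or centring on the median of all genes. That of Dlst was 0.17 in untreated V6.5 cells and -0.045 in iPSCs, and that of Gpt2 was -0.078 in untreated V6.5 cells and 0.20 in iPSCs. These 4 values are small beside the yardstick of 0.59. After rescaling or centring, Dlst and Gpt2 were below MEFs in both, whereas Idh3a and Got2 had opposite signs, so apart from Glud1 the members concerned depend on the scaling.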

How the results depend on the processing

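No paired analysis was possible because each group was 1 library without a replicate number. No library could be left out either. With the narrower yardstick of 0.43, the neighbours further apart numbered 3 in MEFs, 4 in untreated V6.5 cells, 3 in iPSCs, and 4 in NTC, against 0, 2, 1, and 2 with 0.59. None of the 54 ratios of a single member moved by more than 0.59 under any of the alternatives, and the largest shift was 0.31. The sign changed in 6 of them, all with a ratio of at most 0.20 in size. Small shifts were built in, since rescaling and centring move the ratios of a comparison nearly alike and the members stood well above the filters. They do not measure the spread between cultures. Rescaling or centring left 1 member at least 2-fold higher in V6.5 cells over MEFs and gave 2 lower in iPSCs over MEFs. At 1.5-fold, 5 members were higher and 1 lower in V6.5 cells over MEFs (all genes 40.7% and 30.3%), 2 higher and 2 lower in iPSCs over MEFs (42.6% and 28.0%), 4 lower in iPSCs over V6.5 cells (16.8%), 1 higher in shGldc over NTC (17.5%), and 3 lower in each of NTC and shGldc over V6.5 cells (21.1% and 23.9%). With a pseudocount of 1, the log2 ratio of Gpt2 over Gpt in MEFs was 3.19, which follows from the low value of Gpt. The cause of the other changes was not tested beyond the construction of each setting.

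The median log2 ratios of the lists stayed within 0.59 of their values, but small counts changed. With a pseudocount of 1, glutamate genes at least 2-fold lower numbered 2 in iPSCs over MEFs and 0 in shGldc over NTC, 2-hydroxyglutarate genes higher 0 in iPSCs over MEFs, and dioxygenases 0 higher in iPSCs over V6.5 cells, 0 lower in shGldc over NTC and in NTC over V6.5 cells, and 1 higher in shGldc over V6.5 cells. With a pseudocount of 0.01, 1 2-hydroxyglutarate gene was lower in iPSCs over V6.5 cells. Rescaling or centring gave in iPSCs over MEFs 1 TCA partner higher, 0 2-hydroxyglutarate genes higher, and 2 carriers lower, and 1 2-hydroxyglutarate gene lower in iPSCs over V6.5 cells. Without a filter, carriers lower numbered 1 in V6.5 cells over MEFs and 2 in iPSCs over MEFs and over V6.5 cells, and carriers higher 2 in iPSCs over MEFs. Glutamate genes lower then numbered 2 in iPSCs and 5 in shGldc over V6.5 cells, dioxygenases lower 2 in iPSCs and in NTC over V6.5 cells, dioxygenases higher 2 and 2-hydroxyglutarate genes higher 1 in shGldc over NTC, and 2-hydroxyglutarate genes lower 2 in NTC over V6.5 cells. With an FPKM of at least 5, dioxygenases higher numbered 1 in iPSCs and 1 in shGldc over V6.5 cells, and glutamate genes lower 1 in shGldc over NTC. The uncertain depth of NTC and shGldc limits what can be said of their counting error.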

Other observations

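The balance of 3 further pairs of related enzymes, chosen after their values were seen, is given as values. Sucla2, the ATP-forming subunit of succinyl-CoA synthetase, was 68.9% of the FPKM of Sucla2 and Suclg2 in MEFs, 48.2% in untreated V6.5 cells, 63.1% in iPSCs, 45.6% in NTC, and 37.2% in shGldc. Bcat1, the cytosolic branched-chain aminotransferase, was 51.05% of the FPKM of Bcat1 and Bcat2 in MEFs, 39.75% in untreated V6.5 cells, 29.6% in iPSCs, 47.1% in NTC, and 63.4% in shGldc. Both shares crossed 50% between libraries. The exons of Bcat1, Bcat2, and Mdh1 overlap those of other genes, and 15.96% of the 50-nt stretches of Suclg2 are shared with Gm15163. The cytosolic form remained the minor one in each library for the malate dehydrogenases. Mdh1 was between 12.7% (untreated V6.5 cells) and 16.8% (MEFs) of the FPKM of Mdh1 and Mdh2. For Idh1 with Idh2 and Mdh1 with Mdh2, the share of the cytosolic form was therefore largest in MEFs, whereas for Bcat1 with Bcat2 it was largest in shGldc. For Got1 with Got2 it was smallest in MEFs at 26.0%, but shGldc (27.5%) and NTC (28.3%) were close.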
